A study of Mus with 8 samples.

Results

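The levels of 10 genes of the basement membrane are described here in mouse tumours: the heparan sulfate core proteins Hspg2 (perlecan), Agrn and Col18a1, the related collagen Col15a1, the type IV collagen chains Col4a1 and Col4a2, the nidogens Nid1 and Nid2, and the laminin chains Lama4 and Lamc1. These 10 members were picked by name, and a probe was assigned to a member when its accession is a RefSeq transcript of that gene. All 10 were measured, by 16 of the 56605 probes on the array, and they stand among 31281 genes and transcripts that passed the filter on dim probes. The tumours had grown under the skin from MC38, a mouse colon cancer line, and RNA of each whole tumour was hybridised to a 1-colour Agilent array. The hosts were Ext1S100a4Cre mice (Ext1 flox/flox with S100a4-Cre, 4 tumours) and wild type mice (WT host, 4 tumours), all B6, and tumours were removed after 25 to 30 days. Some labels give the first host only as S100a4Cre, and they do not say whether each tumour came from its own mouse, so p-values measure the spread between these samples. The S100a4 promoter is active in fibroblasts and also in some immune cells, so the Cre is not restricted to fibroblasts.

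Basement membranes are thin sheets of matrix that underlie epithelia and blood vessels and wrap muscle fibres, fat cells and Schwann cells. Laminin trimers and type IV collagen form separate networks, nidogens join them, and perlecan, agrin and collagen XVIII add long heparan sulfate chains that hold growth factors. Ext1 encodes part of the polymerase that builds these chains, so the comparison asks whether the genes of the proteins that carry and surround heparan sulfate differ when Ext1 is targeted in S100a4-expressing host cells. The array measures mRNA of the proteins, not the sugar chains. In RNA of a whole tumour, fewer cells of a type and less RNA per cell cannot be told apart.

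Ext1 mRNA itself measured -0.62, -0.27, -0.54 and -0.42 in the Ext1S100a4Cre host tumours, against -0.55, -0.28, 0.24 and -0.14 in WT host tumours. These and all levels below are log2 intensities minus the 75th percentile of the array, so 0 is the brightness of the 75th percentile spot. The difference was -0.28 (SE 0.18, limma adjusted p = 0.747). It is not known whether the probe lies in the floxed part, so it does not check the genotype. S100a4 averaged 3.82 ± 0.90 in the Ext1S100a4Cre host and 3.71 ± 1.14 in the WT host (SD, n = 4 each). Between 65.65% and 71.09% of probes were well above background on each array, with the 2 lowest shares in Ext1S100a4Cre host tumours 1 and 4. In these 2 tumours none of the 4 Y-linked genes Ddx3y, Eif2s3y, Kdm5d and Uty was well above background, while all 4 were in the other 6 tumours. The labels give no sex of the hosts, so hosts of both sexes may be mixed within the Ext1S100a4Cre group, and the part of host sex in the results was not tested. Of 8 intestinal epithelial markers, 7 were well above background on every array, Epcam, Cdh1, Krt8, Krt18 and Cdx2 among them, and Cdx1 was so on 3 of 4 WT host arrays.

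Nid2, Lamc1 and Col18a1 were lower in every Ext1S100a4Cre host tumour than in any WT host tumour, at 0.666, 0.700 and 0.684 of the mean WT host level. Lama4, Nid1 and Col15a1 had lower means by 1.62-fold to 1.90-fold, with overlap between the groups. Col4a1 and Col4a2 had means within 1.22-fold of each other in the 2 hosts, and Hspg2 and Agrn were not lower. None of these differences passed the threshold over all genes: limma called 0 of the 10 members, and 0 of 31281 genes (0% called) at an adjusted p of 0.05. Before adjustment, 2050 genes (6.55%) had a p under 0.05. Of the members, 3 were lower at that level, against 2.16% of all genes, and 3 lay without overlap on the lower side, against 1.14% of all genes. With arrays scaled to the median in place of the 75th percentile, Col18a1 and Lamc1 overlapped slightly and Nid2 did not. In all, 8 of 10 members had a lower mean, against 41.9% of all genes, and their median difference was -0.53, against 0.05 over all genes. The members were chosen with earlier results of these data known, and no test of the list was made.

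**Figure D1:**
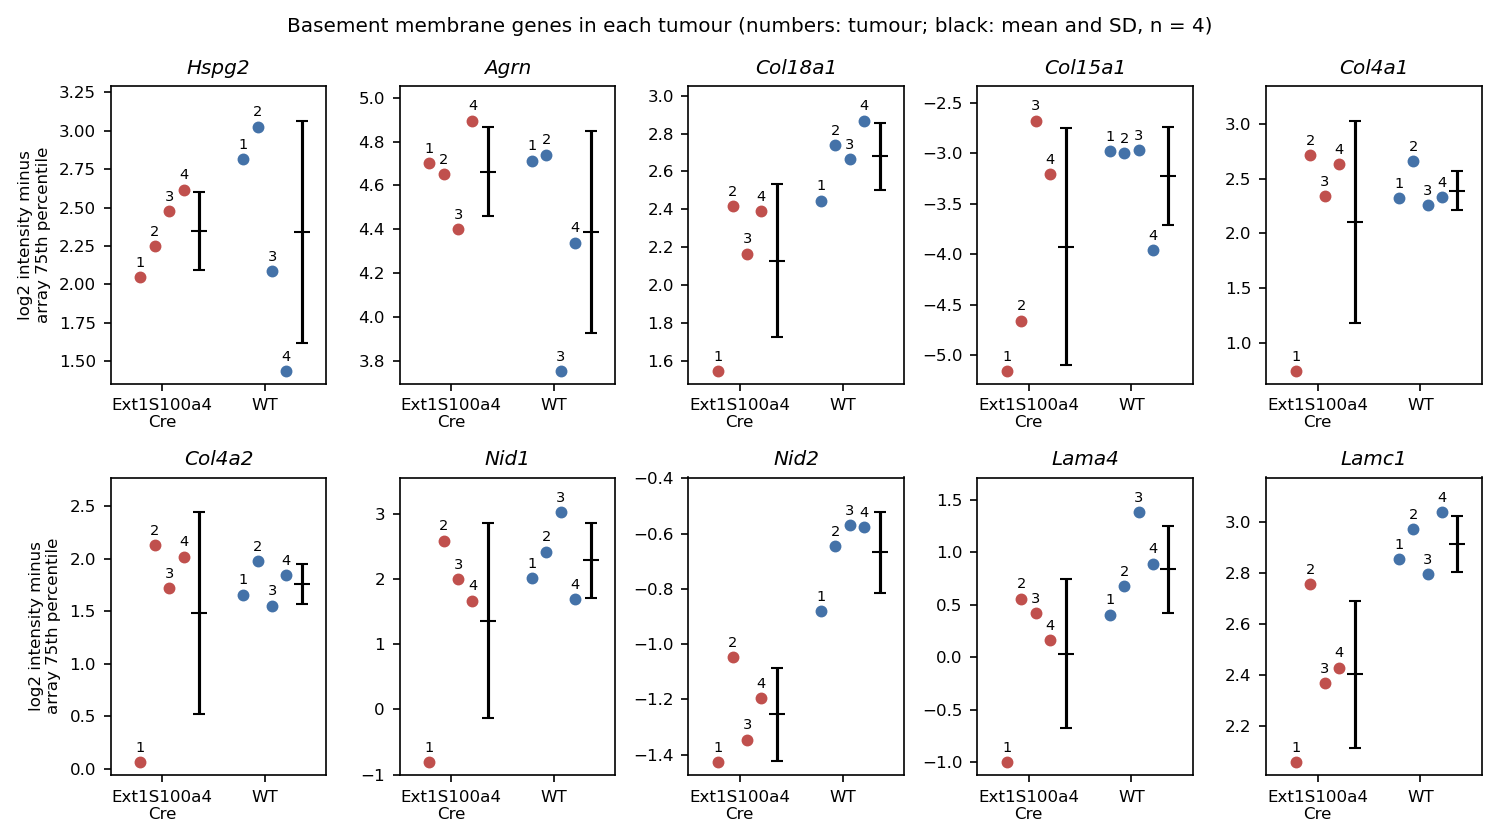
Level of each of the 10 basement membrane genes in every tumour, as log2 intensity minus the array's 75th percentile (each panel has its own axis, which does not start at 0), with Ext1S100a4Cre host tumours in red, WT host tumours in blue, the tumour number at each point and the mean with its SD in black (n = 4 each). Nid2, Lamc1 and Col18a1 do not overlap between the hosts, and Ext1S100a4Cre host tumour 1 is the lowest of all 8 tumours for 8 of the 10 genes.

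Perlecan, the large core protein of vessel and epithelial basement membranes encoded by Hspg2, had about the same mean level in both hosts. It measured 2.05, 2.25, 2.48 and 2.62 in Ext1S100a4Cre host tumours, against 2.81, 3.03, 2.09 and 1.44 in WT host tumours. The 4 tumours of the Ext1S100a4Cre host lay inside the range of the WT host, whose tumours 1 and 2 were the highest of the 8 and whose tumour 4 was the lowest. The difference was 0.0065 (SE 0.34, limma adjusted p = 0.997), with a 95% interval of -0.79 to 0.80, so a difference of up to that size in either direction was not excluded. A second Hspg2 probe was much dimmer, with means of -3.49 in the Ext1S100a4Cre host and -3.61 in the WT host, and gave 0.12 (SE 0.40). The arrays lay in 2 rows of a single slide, each with 2 tumours of either host, and the 2 rows gave opposite values for Hspg2. Within row 1 the difference was -0.77 (SE 0.27) and within row 2 it was 0.79 (SE 0.27). The interaction of host and row was 1.56 (SE 0.38, unadjusted p = 0.00566 and adjusted p = 0.997 over all genes in limma).

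Agrin, which organises the neuromuscular junction and is also made by many epithelia, had overlapping levels in the hosts. Agrn measured 4.70, 4.65, 4.40 and 4.90 in the Ext1S100a4Cre host, against 4.71, 4.74, 3.75 and 4.34 in the WT host. WT host tumour 3 was the lowest and Ext1S100a4Cre host tumour 4 the highest. The difference of 0.28 (SE 0.24, 95% interval -0.27 to 0.82) did not pass in limma (adjusted p = 0.776), and it was 0.065 (SE 0.17) without WT host tumour 3. Within slide row 1 it was -0.050 and within row 2 it was 0.60. Its second probe was much dimmer, with means of -5.17 in the Ext1S100a4Cre host and -5.23 in the WT host, and differed by 0.05 (SE 0.17).

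Collagen XVIII is the third core protein that carries heparan sulfate, and its C-terminal fragment is endostatin, an inhibitor of vessel growth. Col18a1 measured 1.55, 2.42, 2.17 and 2.39 in Ext1S100a4Cre host tumours, against 2.45, 2.74, 2.66 and 2.87 in WT host tumours. All 4 values of the Ext1S100a4Cre host lay below the lowest of the WT host, by a margin of 0.03 between the nearest tumours. The difference was -0.55 (SE 0.21, unadjusted p = 0.0333, adjusted p = 0.747 in limma). The exact two-sided permutation p was 0.0286, the smallest that 4 against 4 tumours allow. Without Ext1S100a4Cre host tumour 1 the difference shrank to -0.35 (SE 0.16). It was -0.61 within slide row 1 and -0.49 within row 2.

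Col15a1, the closest relative of Col18a1, is a chondroitin sulfate core protein found where basement membranes meet fibrillar collagen. It measured -5.16, -4.66, -2.68 and -3.21 in the Ext1S100a4Cre host, against -2.98, -3.00, -2.97 and -3.96 in the WT host. The Ext1S100a4Cre host held both the 2 lowest tumours, 1 and 2, and the highest, tumour 3. Its SD of 1.17 was over the 0.49 of the WT host, and the difference was -0.70 (SE 0.56, limma adjusted p = 0.766). It was -0.29 without Ext1S100a4Cre host tumour 1, -1.11 without its tumour 3 and -0.25 with normexp background correction. A second probe gave -0.97 (SE 0.49). The difference was -1.92 (SE 0.39) within slide row 1 and 0.52 (SE 0.39) within row 2, with an interaction of 2.44 (SE 0.55, unadjusted p = 0.00397, adjusted p = 0.997 over all genes in limma). Both probes were well above background on all 8 arrays.

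Col4a1 and Col4a2 encode the chains of the most widespread type IV collagen trimer, the network that gives a basement membrane its tensile strength. Col4a1 measured 0.74, 2.71, 2.34 and 2.63 in Ext1S100a4Cre host tumours, against 2.32, 2.66, 2.26 and 2.33 in WT host tumours. Col4a2 measured 0.06, 2.13, 1.72 and 2.02 in Ext1S100a4Cre host tumours, against 1.66, 1.98, 1.55 and 1.84 in WT host tumours. For both genes Ext1S100a4Cre host tumour 1 stood far below the other 7, which overlapped across the hosts. The differences were -0.28 (SE 0.42) for Col4a1 and -0.28 (SE 0.43) for Col4a2, with adjusted p of 0.861 and 0.870 in limma. Without tumour 1 of the Ext1S100a4Cre host both turned to higher means, with differences of 0.17 (SE 0.17) and 0.20 (SE 0.17). Within slide row 2, which does not hold that tumour, they were 0.19 and 0.17, and within row 1, which does, -0.76 and -0.72.

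The 2 collagen IV genes lie next to each other on mouse chromosome 8, and they are known to be read in opposite directions from a shared promoter. Across the 8 tumours their levels moved together, with a Pearson r of 0.995 (exact permutation p = 0.000174, adjusted over the 5 pairs examined 0.000868) and a Spearman rho of 0.952 (exact permutation p = 0.00114, adjusted 0.0057). Without Ext1S100a4Cre host tumours 1 and 2, the 2 farthest from the median of Col4a1, r was 0.905. After each host's mean was removed it was 0.995. Relative to their own means, the genes were at most 0.14 log2 units apart in any tumour. The other pairs, set by structure, had lower r. Lama4 and Lamc1, chains that join in the laminins of vessels, had r of 0.803 (exact permutation p = 0.0124, adjusted 0.031) and rho of 0.690 (p = 0.0694, adjusted 0.116). Without Ext1S100a4Cre host tumour 1 and WT host tumour 3 their r was 0.810, and after each host's mean was removed it was 0.648. Some pairs not set by structure had higher r, among them Col18a1 with Lamc1 (0.933) and Nid1 with Lama4 (0.918).

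The nidogens behaved less alike. Nid1 and Nid2 had r of 0.625 (exact permutation p = 0.0571, adjusted 0.0952) and rho of 0.643 (p = 0.0962, adjusted 0.12). After each host's mean was removed r was 0.624. Without Ext1S100a4Cre host tumour 1 and WT host tumour 3 it was 0.064. Those are the 2 tumours farthest from the median of Nid1, and leaving them out narrows its range, which can by itself lower r. Col18a1 with Col15a1 had r of 0.502 (exact permutation p = 0.209, adjusted 0.224) and rho of 0.143 (p = 0.752, adjusted 0.752), with r of 0.016 without Ext1S100a4Cre host tumour 1 and WT host tumour 4. Hspg2 with Agrn had r of 0.492 (exact permutation p = 0.224, adjusted 0.224) and rho of 0.714 (p = 0.0576, adjusted 0.116), with r of 0.496 without WT host tumours 2 and 4. Each slide row holds 4 tumours, too few for a correlation within it. Over all 45 pairs of members, r ran from -0.64, between Agrn and Lama4, to that of the 2 collagen IV genes.

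**Figure D2:**
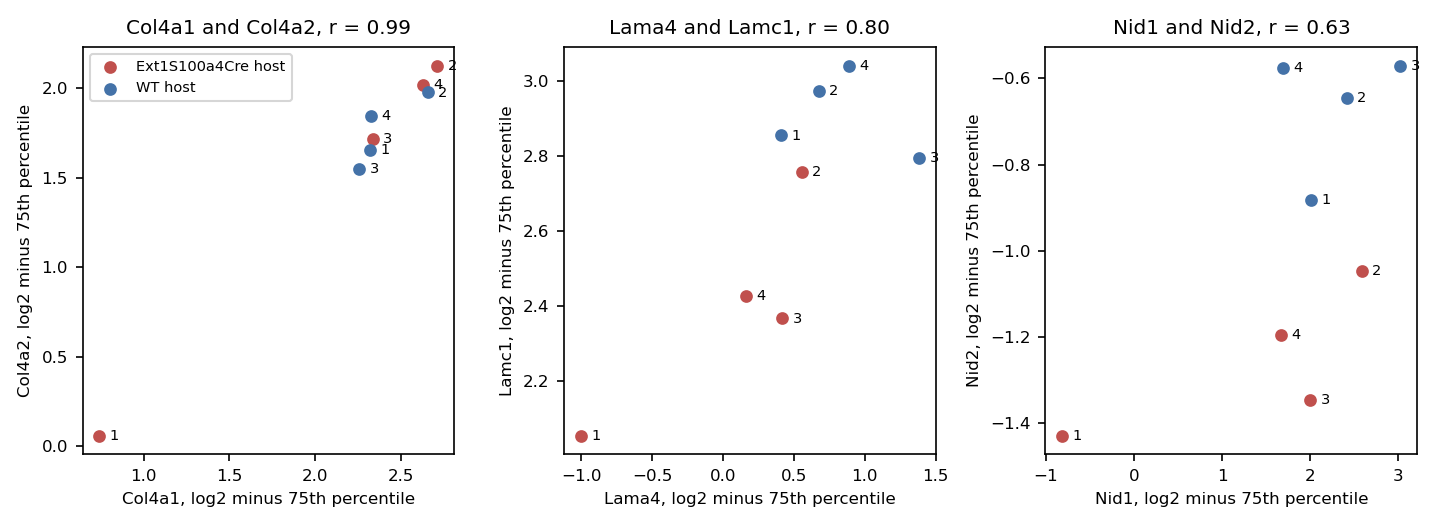
Levels of 3 pairs of genes that share a structure, with 1 point per tumour (red Ext1S100a4Cre host, blue WT host, number of the tumour beside it) and both axes in log2 intensity minus the array's 75th percentile. Col4a1 and Col4a2 lie close to a line, while Nid2 separates the hosts at like levels of Nid1, with Ext1S100a4Cre host tumour 1 alone at the low end of Nid1.

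Nidogens bind both laminin and type IV collagen and so link the 2 networks. Nid2 measured -1.43, -1.05, -1.35 and -1.19 in the Ext1S100a4Cre host, against -0.88, -0.64, -0.57 and -0.58 in the WT host. All 4 tumours of the Ext1S100a4Cre host lay below all 4 of the WT host, with 0.17 between the nearest tumours. The difference of -0.59 (SE 0.14, 95% interval -0.90 to -0.27) had the smallest p among the members (unadjusted 0.00276, adjusted 0.733 in limma). The exact two-sided permutation p was 0.0286, the smallest possible. Without Ext1S100a4Cre host tumour 1 the difference was -0.53 (SE 0.15), and it was -0.47 within slide row 1 and -0.70 within row 2.

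Nid1 spread far more between tumours than Nid2. It measured -0.81, 2.58, 2.00 and 1.66 in Ext1S100a4Cre host tumours, against 2.01, 2.41, 3.02 and 1.69 in WT host tumours. Tumour 1 of the Ext1S100a4Cre host was lowest by a wide gap and the other 7 overlapped across the hosts. The difference of -0.93 (SE 0.70, adjusted p = 0.757 in limma) became -0.20 (SE 0.36) without that tumour. Its second probe was not well above background in that same tumour, and differed by -1.17 (SE 1.00).

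Lamc1 encodes the gamma 1 chain, which most laminin trimers contain. It measured 2.06, 2.76, 2.37 and 2.43 in the Ext1S100a4Cre host, against 2.85, 2.97, 2.79 and 3.04 in the WT host. No tumour of the Ext1S100a4Cre host reached the lowest of the WT host, with 0.04 between the nearest. The difference was -0.51 (SE 0.17, unadjusted p = 0.0145, adjusted p = 0.747 in limma), with an exact two-sided permutation p of 0.0286, the smallest possible. A second Lamc1 probe, designed to the same transcript, also separated the hosts. It measured -0.82, -0.68, -0.48 and -0.60 in Ext1S100a4Cre host tumours, against -0.35, -0.28, -0.26 and -0.40 in WT host tumours, with a difference of -0.32 (SE 0.12). Without Ext1S100a4Cre host tumour 1 the difference of the first probe was -0.40 (SE 0.15), and it was -0.51 within slide row 1 and -0.52 within row 2.

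Lama4 encodes the laminin alpha 4 chain, which is typical of vessel walls, muscle and fat. It measured -1.002, 0.56, 0.42 and 0.16 in Ext1S100a4Cre host tumours, against 0.41, 0.67, 1.38 and 0.89 in WT host tumours. The groups overlapped in a narrow zone, with Ext1S100a4Cre host tumours 2 and 3 above WT host tumour 1. The difference of -0.80 (SE 0.37, limma unadjusted p = 0.0592 and adjusted p = 0.747) shrank to -0.46 (SE 0.25) without Ext1S100a4Cre host tumour 1. The second Lama4 probe gave -0.76 (SE 0.41).

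**Figure D3:**
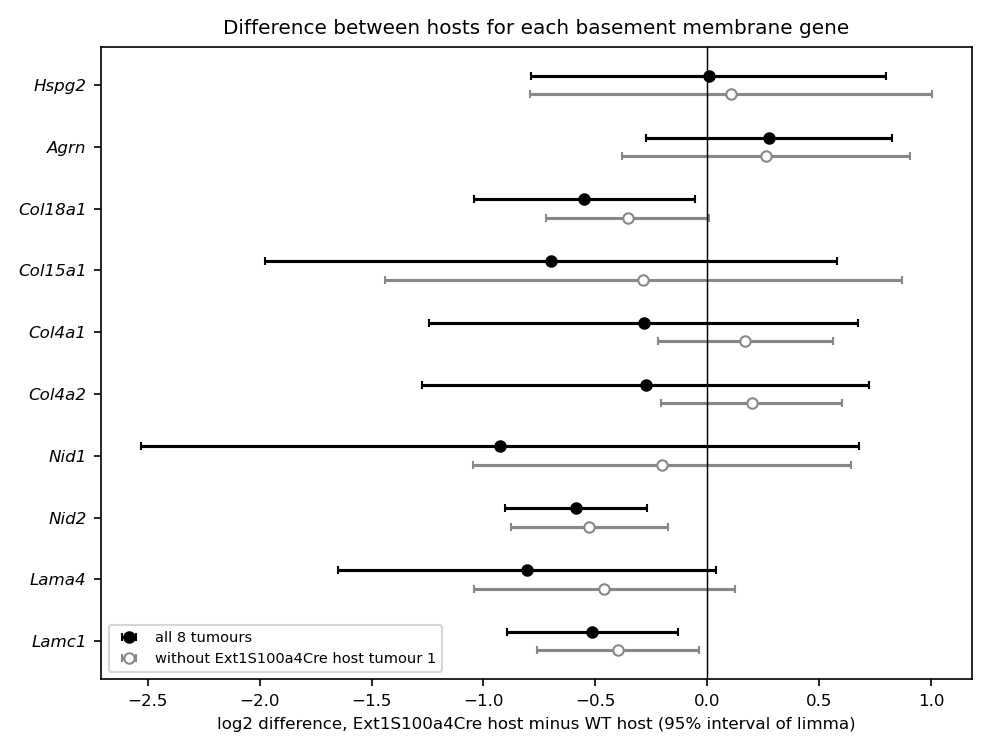
Log2 difference of each gene, Ext1S100a4Cre host minus WT host, with limma's 95% interval, from all 8 tumours (filled points) and without Ext1S100a4Cre host tumour 1 (open points). Nid2 and Lamc1 have intervals below 0 in both fits, Col18a1 in the first only, and Col4a1 and Col4a2 change sign between the fits.

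Tumour 1 of the Ext1S100a4Cre host set much of the spread. It had the lowest level of 8 of the 10 members, all but Hspg2 and Agrn, and the mean of the 10 stood 1.08 log2 units below the mean of the 8 tumours there. In the other 3 tumours of its host that mean stood at 0.08, 0.03 and 0.09, against 0.18, 0.40, 0.25 and 0.04 in WT host tumours. Without it the median difference of the members was -0.24 in place of -0.53. Without Ext1S100a4Cre host tumours 1 and 4, which lacked Y-linked signal, 5 of 10 members had a lower mean and the median was -0.17. Nid2, Col18a1 and Lamc1 then differed by -0.53, -0.39 and -0.35.

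Endothelial, fibroblast and macrophage markers were low in this tumour. Schwann cell, adipocyte, and pericyte and smooth muscle markers were low there too, with mean deviations of -1.51, -2.41 and -0.81. This did not hold for intestinal epithelial and keratinocyte markers. Mean deviations of the latter 2 lists from the 8-tumour average were 0.18 and 0.22 there. Skeletal muscle markers, at -1.30 in this tumour, lay within the WT host range of -1.72 to -1.05. Of 10 endothelial markers, 9 had a lower mean in the Ext1S100a4Cre host, with a median difference of -0.58, or -0.19 without Ext1S100a4Cre host tumour 1. Relative to the mean of the 8 tumours their mean stood at -1.54 in Ext1S100a4Cre host tumour 1 and from -0.01 to 0.22 in its other 3, against 0.02 to 0.65 in WT host tumours. Their summed level, in multiples of the 75th percentile, ran from 3.95 to 13.8 in the Ext1S100a4Cre host, against 9.55 to 11.5 in the WT host. Cdh5, the cadherin of endothelial junctions, measured -1.48, 0.14, 0.37 and 0.28 in the Ext1S100a4Cre host, against 0.56, 0.89, 0.66 and 0.61 in the WT host, without overlap (difference -0.85, SE 0.39, adjusted p = 0.747 in limma). Tie1, Erg and Esam differed by -0.71 (SE 0.41), -0.65 (SE 0.40) and -0.54 (SE 0.34). Vwf, the 1 marker with a higher mean, differed by 0.20 (SE 0.42). Tek exceeded background clearly in 2 of 4 tumours of the Ext1S100a4Cre host and in 4 of 4 of the WT host. The part of these cells in the results on members was not tested.

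Of 10 fibroblast markers, 10 had a lower mean in the Ext1S100a4Cre host and 0 passed the adjusted threshold. Their median difference was -1.67, or -0.48 without Ext1S100a4Cre host tumour 1 and 0.07 without its tumours 1 and 4. Their summed level ran from 15.2 to 191.9 in the Ext1S100a4Cre host, against 113.4 to 498.0 in the WT host, and Dpt was well above background in 2 of 4 tumours of the Ext1S100a4Cre host and 4 of 4 of the WT host. Of 10 pericyte and smooth muscle markers, 8 had a lower mean, with a median of -0.20, or -0.056 without Ext1S100a4Cre host tumour 1, and summed levels of 45.8 to 57.1 in the Ext1S100a4Cre host, against 49.2 to 68.6 in the WT host. All 6 macrophage markers had lower means, with a median of -1.19, or -0.61 without Ext1S100a4Cre host tumour 1 and -0.77 without WT host tumour 3, and summed levels of 4.10 to 24.2 in the Ext1S100a4Cre host, against 14.7 to 77.8 in the WT host. WT host tumour 3 was highest for the fibroblast and macrophage lists, with mean deviations of 2.17 and 2.22. Without Ext1S100a4Cre host tumour 1, Nid2, Lamc1 and Col18a1 differed by -0.53, -0.40 and -0.35. The fibroblast and macrophage lists also still had lower medians in that fit. The part of these cell types in the members' values was not tested.

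**Figure D4:**
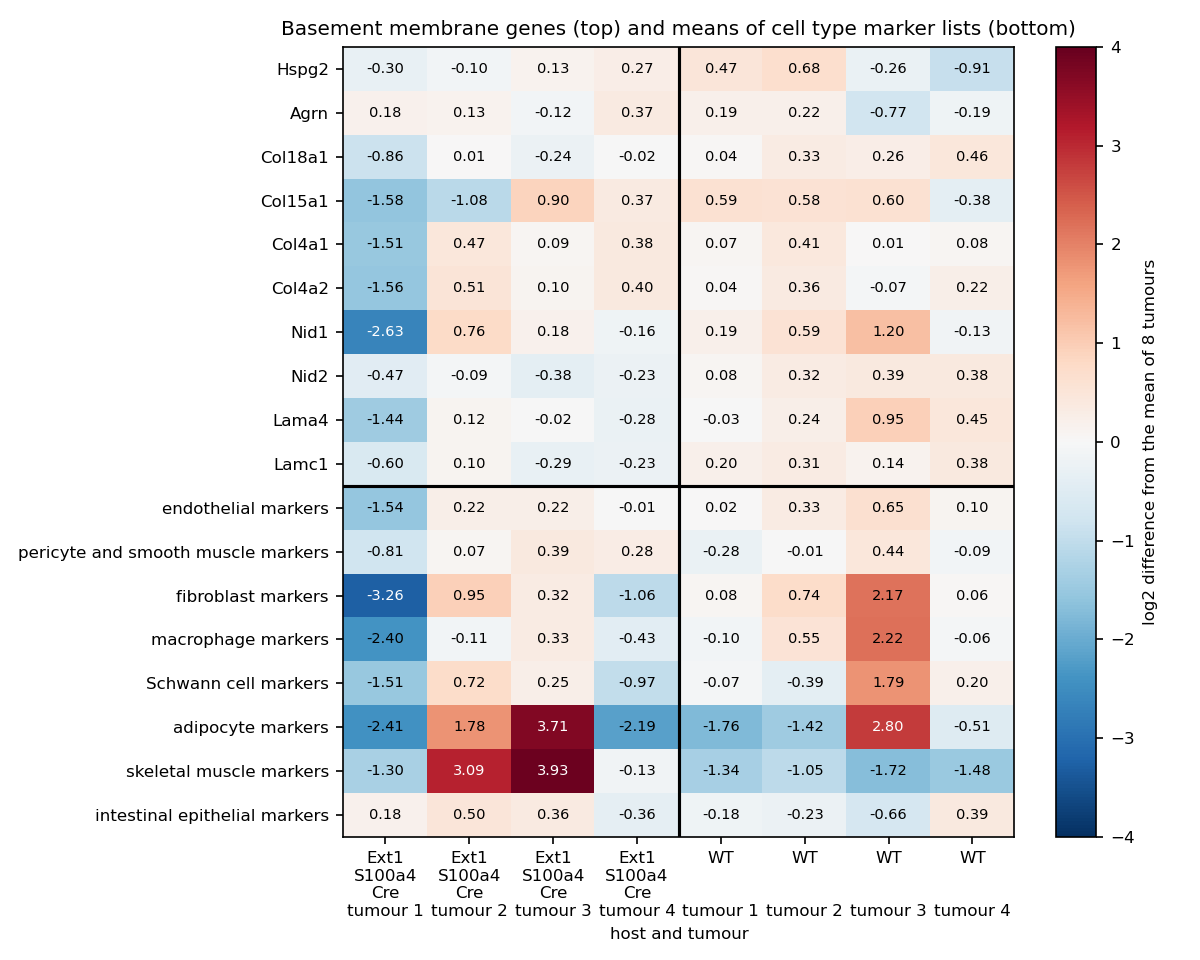
Log2 level of each basement membrane gene (upper block) and mean over the genes of each cell type marker list (lower block) relative to the mean of the 8 tumours, with Ext1S100a4Cre host tumours in the left 4 columns and WT host tumours in the right 4. Ext1S100a4Cre host tumour 1 is low for 8 of the 10 genes and for the endothelial, fibroblast and macrophage lists, at -1.54, -3.26 and -2.40. It is also low for the pericyte and smooth muscle, Schwann cell and adipocyte lists, at -0.81, -1.51 and -2.41.

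The other lists of basement membrane genes differed in how they were split. Other laminin and netrin chains divided evenly, while 9 of 12 tested other glycoproteins had a lower mean, against 41.9% of all genes. Of 11 other laminin and netrin chains, 10 were measured, 5 with a lower and 5 with a higher mean, and their median difference was -0.08, or 0.20 without Ext1S100a4Cre host tumour 1 and 0.11 without WT host tumour 3. Lamb1, the beta 1 chain that pairs with Lamc1, differed by -0.46 (SE 0.25) and Lama5, the alpha 5 chain, by 0.32 (SE 0.20). Lama3 differed by -0.35 (SE 0.48). Ntn4 was well above background on 2 arrays and was not tested.

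Of 6 other collagens of this matrix, 3 were tested. Col7a1, which anchors epithelial basement membranes to the matrix below, was higher in every Ext1S100a4Cre host tumour than in any WT host tumour. It measured 2.15, 2.15, 2.01 and 2.32 in the Ext1S100a4Cre host, against 1.78, 1.94, 1.06 and 1.51 in the WT host. The difference of 0.59 (SE 0.20, unadjusted p = 0.0189, adjusted p = 0.747 in limma) is in a direction in which 3.38% of all genes separated the hosts and 4.39% had unadjusted p under 0.05. Col4a5, the collagen IV chain that replaces the common ones in kidney filters and some other sites, differed by -0.78 (SE 0.27, unadjusted p = 0.0193, adjusted p = 0.747) and Col17a1 by -0.41 (SE 0.59). Col4a3, Col4a4 and Col4a6 were below the filter.

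Of 17 other glycoproteins of basement membranes, 12 were tested, 9 with a lower mean, and their median difference was -0.68, or -0.37 without Ext1S100a4Cre host tumour 1. Pxdn, the peroxidase that crosslinks type IV collagen, measured 0.94, 2.93, 2.13 and 2.43 in Ext1S100a4Cre host tumours, against 3.25, 3.27, 3.14 and 2.77 in WT host tumours. It differed by -1.002 (SE 0.39, unadjusted p = 0.0329, adjusted p = 0.747 in limma), and only tumour 2 of the Ext1S100a4Cre host reached the range of the WT host. Vwa1, which binds perlecan, differed by -0.63 (SE 0.30), Matn2 by -0.94 (SE 0.54) and Smoc1 by 1.80 (SE 0.96). Without Ext1S100a4Cre host tumours 1 and 4 the median of these 12 genes was -0.0028.

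Receptors for the basement membrane had a median difference of -0.18, or -0.11 without Ext1S100a4Cre host tumour 1, with 9 of 12 tested genes lower in mean. Itga6, a laminin-binding integrin chain, differed by -0.72 (SE 0.34, unadjusted p = 0.0674), Ddr2, a collagen receptor, by -1.34 (SE 0.77), Robo4 by -0.46 (SE 0.33) and Itgb1, the beta chain of most matrix integrins, by -0.14 (SE 0.11). The 12 genes for folding and export of collagen were split 6 and 6, with a median of -0.03. Among them P3h1 differed by 0.29 (SE 0.18), Plod1 by -0.15 (SE 0.14), Colgalt1 by 0.14 (SE 0.13) and the collagen chaperone Serpinh1 by -0.25 (SE 0.30). None of these had unadjusted p under 0.05.

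All 11 proteases and heparanase of the list had a lower mean, with a median of -0.84, or -0.37 without Ext1S100a4Cre host tumour 1. The list was highest in WT host tumour 3, with a mean deviation of 1.54. Its lowest level was in Ext1S100a4Cre host tumour 1, with a mean deviation of -2.24. Without these 2 tumours the median was 0.0060. That fit was added after seeing the data and drops the lowest and the highest tumour. It is therefore no test of what the shared direction rests on. Prss12 (neurotrypsin), which cuts agrin, measured 2.76, 3.56, 2.91 and 3.34 in Ext1S100a4Cre host tumours, against 3.77, 3.89, 3.66 and 4.59 in WT host tumours. The hosts did not overlap, and the difference was -0.84 (SE 0.26, unadjusted p = 0.0124, adjusted p = 0.747 in limma). Hpse, which cleaves heparan sulfate chains, differed by -0.97 (SE 0.36, unadjusted p = 0.0276). Mmp3 differed by -3.91 (SE 1.81) and was not well above background in 1 Ext1S100a4Cre host tumour, and Mmp2, a type IV collagenase, by -2.13 (SE 1.34). None of the genes in these lists passed the adjusted threshold.

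Among 15730 named genes, those whose levels over the 8 tumours most resembled the mean of the 10 members were Sncaip, Sema7a, Loxl2, Ccn4, Tie1, Cdh5, Sox18 and Dchs1, with Pearson r from 0.976 to 0.994. Ext1S100a4Cre host tumour 1 is low for the members and weighs heavily in such a measure. Without it these r ran from 0.738 for Sox18 to 0.942 for Sncaip. Tie1, Cdh5 and Sox18 are genes of endothelial cells, and Loxl2 encodes an enzyme that crosslinks collagen. The genes most like Hspg2 alone were Olfr843, Arid3a, Grrp1 and Chdh, with r from 0.907 to 0.931 over the 8 tumours, and none of these 4 was among the 8 most like the mean.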

How the data were processed

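Whole tumours, 4 from the Ext1S100a4Cre host and 4 from the WT host, were measured on 1-colour arrays, from 0.5 µg of total RNA each per the labels' protocols. Per the file headers, the deposited spot intensities came from Agilent Feature Extraction 10.7.3.1 and are background-subtracted and detrended; the submitters' processing notes name version 9.1. Other deposited columns per the file headers, coded as flags of 0 or 1, mark spots well above background, saturated spots (0 found) and outliers. The deposited value table of the series held the same intensities (100% of values within 0.01%, multi-spot probes averaged on the log scale, median ratio 1), with no scaling or centring between arrays and column medians from 47.1 to 80.0.

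Here, log2 of the processed intensity minus each array's 75th percentile over spots other than controls was used (percentile 846.9 to 1265). Outlier spots (53 to 132 per array) were left out on their array, and spots of a probe were averaged. The 39716 probes that the scanner software marked as well above background on 4 or more of 8 arrays were kept. Names came from a RefSeq gene table of GRCm38.p6 by accession without version, which named 32994 of 56605 probes and left 23611 unnamed. The headers name mm9, so no coordinate is given. A gene is represented by its brightest kept probe, which gave 17238 named genes and 14043 unnamed transcripts.

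The test between hosts was limma's moderated test (version 3.58.1, R 4.3.3; lmFit, then eBayes; two-sided), with Benjamini-Hochberg adjustment over 31281 genes, and was tested on simulated data. Differences are Ext1S100a4Cre host minus WT host. Single genes were also tested over the 70 assignments of 4 of 8 tumours (exact, two-sided, smallest p 0.0286). Pairs of genes used exact permutation of the 8 tumours (two-sided) over 5 pairs. Named are the 10 members, Ext1, S100a4, of each other list up to 4 genes with the smallest p plus any without overlap, and the genes most like the members by r. A gene that this rule names is not reported here. Tek, Vwf, Epcam, Cdx2, Krt18 and the Y-linked genes fall outside it or serve only as checks against background, and were chosen after their values were seen. Members and lists were chosen with earlier results of these data known. The number of arrays limits the precision. Samples were not treated as paired by replicate number in the main test. Correlations of same-numbered deviations were mixed (0.493, -0.162, 0.591 and -0.245) and do not settle whether such samples are paired.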

Additional observations from a re-analysis of the deposited data

Results flagged for a closer look

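Col15a1 in WT host tumour 4 measured -3.96, far from the other 3 tumours of that host, which lay between -3.00 and -2.97. The gap to the nearest was 0.971 of the whole range of the group and above Dixon's critical value for 4 samples. Both hosts were examined for each of the 10 members, 20 groups of 4 in all, and chance gives about 1 such value in 20 groups. The second Col15a1 probe was also lowest of the WT host in that tumour, at -4.01.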

How the results depend on the processing

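No member passed the adjusted threshold under any alternative. Nid2, Lamc1, Col18a1 and Lama4 kept a lower mean in all 24 of them, with Nid2 between -0.84 and -0.47. Under median scaling Col18a1 and Lamc1 just overlapped between the hosts, while Nid2 did not. Hspg2 turned to -0.022 with normexp, -0.061 with quantile scaling, -0.24 in the unscaled series matrix, -0.31 with array weights and -0.77 within slide row 1, and ran from -0.29 to 0.24 with 1 tumour left out. Agrn turned to -0.050 within slide row 1. Col4a1 and Col4a2 ran from -0.49 to 0.17 and from -0.49 to 0.20 with 1 tumour left out, and turned to 0.14 and 0.17 without Ext1S100a4Cre host tumours 1 and 4, 0.19 and 0.17 within slide row 2, and 0.13 and 0.13 without Ext1S100a4Cre host tumour 1 and WT host tumour 3 (an alternative added after seeing the data, like the percentile over probes). Nid1 turned to 0.0058 and 0.043 in the first and last of these, and Col15a1 to 0.52 within slide row 2. The cause was not tested. The number of members with a lower mean, 8, became 5 without tumours 1 and 4 of the Ext1S100a4Cre host, 5 within slide row 2 and 5 without Ext1S100a4Cre host tumour 1 and WT host tumour 3, where the median difference was -0.090. The series matrix moved the median of all genes to -0.20 and normexp to 0.10, from 0.05.

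Over all genes the 0 calls became 1 with normexp and 1 with array weights, the same unnamed transcript, 0 to 2 with 1 tumour left out, 11 without Ext1S100a4Cre host tumours 1 and 4, and 3 without Ext1S100a4Cre host tumour 1 and WT host tumour 3 (Fam163a and 2 unnamed transcripts, named after their values were seen). Of the 11, 0 were members, and Actn3, Mb and Acta1 of the skeletal muscle list were among them. That fit keeps only tumours 2 and 3 of the Ext1S100a4Cre host, those with the highest muscle marker levels, which favours such calls. Genes at unadjusted p under 0.05 numbered 2050, 3241 with the replicate block, 3297 with array weights and 1243 within slide row 1. With the replicate number as a block 0 genes were called and the median difference of the members was -0.53. Tumours correlated best with their own number in 2 of 4 cases.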

Other observations

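Growth factors that bind perlecan or heparan sulfate varied widely between tumours. Of 9 tested, 6 had a lower mean, with a median difference of -0.68, and 0 passed the adjusted threshold. The median was -0.24 with normexp background correction and -0.12 among genes well above background on all 8 arrays. Pdgfb, which recruits pericytes to vessels, measured -1.07, -0.33, 0.29 and 0.76 in Ext1S100a4Cre host tumours, against 0.55, 0.73, 1.41 and 0.57 in WT host tumours (difference -0.90, SE 0.40, unadjusted p = 0.0521 in limma). Hgf differed by -1.88 (SE 0.99), Fgf7 by -1.38 (SE 0.91) and Fgf2 by -1.14 (SE 0.72). They were well above background in 2, 3 and 2 of 4 Ext1S100a4Cre host tumours and in all 4 WT host tumours. These differences therefore rest partly on values near background, and their size is uncertain. Without Ext1S100a4Cre host tumour 1 the median of the 9 was -0.39, and without WT host tumour 3 it was -0.24.

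Muscle fibres, fat cells and Schwann cells are wrapped in a basement membrane of their own, and their markers varied between tumours. All 9 tested skeletal muscle markers had a higher mean in the Ext1S100a4Cre host. Mb and Myh1 were well above background in 4 and 3 of 4 Ext1S100a4Cre host tumours and in 1 of 4 WT host tumours each. Both thus passed the filter through the host where they are high, so their direction adds no support. The mean deviation of all 9 from the 8-tumour average was -1.30, 3.09, 3.93 and -0.13 in the Ext1S100a4Cre host. In the WT host it was -1.34, -1.05, -1.72 and -1.48. Actn3, of the sarcomere, differed by 3.04 (SE 0.66, unadjusted p = 0.00161 and adjusted p = 0.694 in limma), without overlap between the hosts. Without Ext1S100a4Cre host tumours 1 and 4 it differed by 4.29 and its adjusted p in limma was 0.0253. That fit keeps only tumours 2 and 3 of this host, those with the highest muscle marker levels. The choice of tumours thus favours such a call, and it is no test of the host difference. Mb, myoglobin, cleared the background mark in 4 of 4 tumours of the Ext1S100a4Cre host and in 1 of 4 of the WT host, so no difference is given. Adipocyte markers stood at -2.41, 1.78, 3.71 and -2.19 in the Ext1S100a4Cre host, against -1.76, -1.42, 2.80 and -0.51 in the WT host. Of 5 tested, 4 had a higher mean, and their median difference of 0.58 ran from -0.78 without Ext1S100a4Cre host tumour 3 to 1.66 without WT host tumour 3. All 6 Schwann cell markers had a lower mean, with a median of -0.52, or -0.30 without Ext1S100a4Cre host tumour 1, -0.95 without its tumour 2, -0.28 without its tumour 4 and -0.18 without WT host tumour 3, and the highest level in WT host tumour 3. The 4 tested keratinocyte markers had a median difference of 0.12 and the 8 intestinal epithelial markers of 0.13. Cdx1, an intestinal transcription factor, was higher without overlap, by 1.92 (SE 0.61, unadjusted p = 0.0133 and adjusted p = 0.747 in limma). On that side 3.38% of all genes separated the hosts. It was well above background on 3 of 4 WT host arrays and measured -7.28 in WT host tumour 3, so the size of its difference is uncertain.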
